A study of Homo sapiens with 8 samples.

Results

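KDR, FLT1, FLT4, APLNR and TEK encode receptors of the cell surface through which vascular mesoderm and endothelium receive vascular growth factors. They were chosen by gene symbol, with earlier differences between these same groups of libraries known, and all 5 were found among the 15811 genes of the deposited table. Their levels and differences are therefore described here without a test. KDR, FLT1 and APLNR transcripts were fewer in EXT1-/- cells than in WT cells, TEK transcripts were more abundant in EXT1-/- cells, and FLT4 values overlapped between the groups.

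KDR (VEGFR2), FLT1 (VEGFR1) and FLT4 (VEGFR3) are the receptor tyrosine kinases of the vascular endothelial growth factors. KDR carries most of the growth signal of VEGFA and marks mesoderm progenitors from which endothelium and blood arise, FLT1 binds VEGFA tightly but signals weakly, and FLT4 binds VEGFC and VEGFD. APLNR is a G protein-coupled receptor for the peptides apelin and APELA and is switched on in mesoderm that leaves the primitive streak. TEK (TIE2) is the receptor tyrosine kinase of the angiopoietins, a pathway best known from mature vessels and blood stem cells. Heparan sulfate, a sugar chain of the cell surface and matrix, binds the heparin-binding forms of VEGFA and acts as a coreceptor for them.

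RNA was taken from EXT1-/- cells (4 libraries) and WT cells (4 libraries) of H9, an established human embryonic stem cell line. EXT1 encodes a glycosyltransferase that elongates the heparan sulfate chain. The EXT1-/- cells are 1 line made with CRISPR/Cas9, so the genotype and the history of that line cannot be told apart. Both groups were seeded on vitronectin with the ROCK inhibitor Y-27632 and then kept for 28 h in RPMI-1640 with 6 µM CHIR-99021, a GSK3 inhibitor that activates β-catenin signalling and drives the cells towards mesendoderm. Libraries before induction were not analysed here, so values are levels after 28 h and not responses to induction. The labels do not give separate cultures for the replicates, and a p-value here therefore reflects only how these libraries scatter, which may be technical.

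Values are read counts as the authors normalised them, and their totals per library were 37737058 to 40017763. The share of mitochondrial reads divided the libraries into a high set of 3 (EXT1-/- replicates 1 and 4 and WT replicate 1, 9.18% to 10.7%) and a low set of 5 (5.30% to 5.43%). EXT1 itself had 890 to 980 normalised counts in EXT1-/- libraries and 1464 to 1776 in WT libraries, and remained transcribed. Of 19 endothelial and blood surface markers, 12 were not in the table, PECAM1, CDH5, CD34 and VWF included, which are defining markers of mature endothelium. The other 7 are described with the pathway genes. The table holds no gene whose second-highest library is below 1.00 CPM (normalised counts scaled to library size), where 1 CPM equals 38.9 normalised counts. A gene absent from the table may therefore have been expressed at a low level. Among genes named below, TIE1, APLN, HHEX, GRIA3 and CYP51A1P2 were under 1 CPM in every EXT1-/- library. HAND1, POU3F2 and OTX1 were under 1 CPM in every WT library. Each is in the table only through the other group, so its direction was largely fixed by this floor.

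In the GENCODE 29 annotation of GRCh38, KDR (ENSG00000128052) lies at chr4:55078259-55125595 on the minus strand, FLT1 (ENSG00000102755) at chr13:28300344-28495145 on the minus strand and FLT4 (ENSG00000037280) at chr5:180601506-180649624 on the minus strand. APLNR (ENSG00000134817) lies at chr11:57233577-57237314 on the minus strand and TEK (ENSG00000120156) at chr9:27109141-27230175 on the plus strand. All 5 are protein-coding genes and lie on different chromosomes, so no pair shares a locus. The antisense gene AC111194.2 overlaps KDR, and the pseudogenes RNA5SP280 and AL355433.1 overlap TEK. None of them was in the table.

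RefSeq (GRCh38.p14) promoters were matched for 3 of the 5 genes, with a pair of start sites for TEK. The promoters of KDR and FLT1, which were lower in EXT1-/- cells, and of TEK, which was higher, are shown because the genes moved in opposite directions. Each runs 5′ to 3′ along the gene, from 250 bases before the start site to 50 bases after it, at chr4:55125546-55125845 (minus strand) for KDR, chr13:28495079-28495378 (minus strand) for FLT1 and chr9:27108975-27109274 (plus strand) for TEK. Capitals mark matches on either strand to 6 short motifs. Sites of ETS factors were searched by their core GGAAG, and those of GATA factors, which act in blood and endothelium, as GATAA. The core of TCF and LEF factors, the partners of β-catenin, was searched as CTTTGA, and the site of T-box factors such as TBXT as AGGTGT. The GC box common in promoters near CpG islands was searched as GGGCGG, and the TATA box that places the start site as TATAAA. No matches overlapped one another.
KDR: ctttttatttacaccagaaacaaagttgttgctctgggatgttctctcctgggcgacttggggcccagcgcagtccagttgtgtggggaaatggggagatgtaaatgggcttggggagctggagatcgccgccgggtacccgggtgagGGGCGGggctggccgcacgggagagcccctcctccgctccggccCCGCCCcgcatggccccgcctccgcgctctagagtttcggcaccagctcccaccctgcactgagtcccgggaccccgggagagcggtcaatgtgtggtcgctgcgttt
FLT1: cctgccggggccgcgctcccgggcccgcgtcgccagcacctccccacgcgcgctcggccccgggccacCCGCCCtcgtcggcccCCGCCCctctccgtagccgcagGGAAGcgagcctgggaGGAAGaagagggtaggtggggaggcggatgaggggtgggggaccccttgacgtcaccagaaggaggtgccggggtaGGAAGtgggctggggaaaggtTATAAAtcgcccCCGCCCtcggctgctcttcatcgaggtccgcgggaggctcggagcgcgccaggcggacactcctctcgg
TEK: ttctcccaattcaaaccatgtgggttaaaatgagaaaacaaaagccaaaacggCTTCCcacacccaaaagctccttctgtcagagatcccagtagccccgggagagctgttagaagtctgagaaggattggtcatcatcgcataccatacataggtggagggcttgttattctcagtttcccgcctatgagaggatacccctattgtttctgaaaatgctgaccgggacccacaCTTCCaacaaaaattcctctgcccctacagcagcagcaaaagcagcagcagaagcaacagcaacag

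The KDR promoter held 2 GC boxes and no match to the other motifs. Its GC content of 65.0% was above that of 66.8% of the 35116 promoters in the RefSeq table, and it held 22 CpG. The FLT1 promoter held 3 ETS cores, 3 GC boxes and 1 TATA box starting 31 bases before the start site, with a GC content of 73.3% and 33 CpG. The first TEK promoter held 2 ETS cores, both on the other strand (CTTCC), a GC content of 48.0% and 5 CpG. The promoter at the second TEK start site (27109450) held 1 ETS core, the one that starts 16 bases before the first start site in the sequence printed above, and 1 GATA site. Among all promoters, 71.9% held an ETS core, 22.7% a GATA site, 12.9% a TCF/LEF core, 11.4% a T-box site, 45% a GC box and 11.5% a TATA box. The KDR and FLT1 promoters were thus GC-rich and the TEK promoter was below the median GC content of 58.7%. A match is a run of letters and not a bound site, and no binding was measured in these cells.

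KDR had 1458, 1645, 1793 and 1697 normalised counts in EXT1-/- libraries, against 10216, 10334, 9967 and 10796 in WT libraries. Every EXT1-/- library lay below every WT library, and the closest pair of libraries from the 2 groups still differed 5.56-fold. KDR averaged 1648 ± 141 normalised counts in EXT1-/- libraries and 10328 ± 347 in WT libraries (SD, n = 4 each), so that the EXT1-/- mean was 0.160 times the WT mean. The log2 fold change was -2.65 ± 0.07 (SE), which placed KDR at rank 83 from the most negative of all genes. Within the low mitochondrial set the log2 fold change was -2.59 and within the high set, which holds 1 WT library, -2.70. In the bulk RNA measured here, fewer KDR-positive cells and less KDR RNA per cell cannot be told apart, and the same holds for the other receptors.

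FLT1, the decoy-like receptor of VEGFA, was lower as well, with 570, 511, 484 and 483 normalised counts in EXT1-/- libraries and 1216, 1068, 1005 and 1087 in WT libraries. The groups did not overlap, and the first replicate was the highest library of each group. FLT1 averaged 512 ± 40.8 in EXT1-/- libraries and 1094 ± 88.6 in WT libraries (SD, n = 4 each), 0.468 times the WT mean. Its log2 fold change was -1.09 ± 0.08 (SE), with -1.08 over the libraries of the low set and -1.21 over those of the high set.

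FLT4, the receptor of VEGFC and VEGFD that is best known from lymphatic vessels, had 266, 226, 192 and 244 normalised counts in EXT1-/- libraries and 289, 225, 259 and 235 in WT libraries. These ranges overlapped, and again the first replicate was the highest of each group. FLT4 averaged 232 ± 31.3 in EXT1-/- libraries and 252 ± 28.5 in WT libraries (SD, n = 4 each). The log2 fold change of -0.12 ± 0.12 (SE) was no larger than its error. It was -0.20 in the low set and -0.18 in the high set.

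APLNR showed the largest difference of the 5 genes on the log2 scale. It had 91, 83, 100 and 117 normalised counts in EXT1-/- libraries, against 928, 984, 1027 and 1120 in WT libraries. The lowest WT library lay 7.93-fold above the highest EXT1-/- library. APLNR averaged 97.8 ± 14.6 in EXT1-/- libraries and 1015 ± 81.0 in WT libraries (SD, n = 4 each), 0.0963 times the WT mean. The log2 fold change of -3.37 ± 0.11 (SE) was at rank 40 from the most negative, and it came to -3.50 in the low set and -3.16 in the high set. All 4 EXT1-/- libraries still held more than 1 CPM of APLNR, so the transcript was low but not missing.

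TEK, the angiopoietin receptor, moved the other way. It had 1500, 1551, 1532 and 1618 normalised counts in EXT1-/- libraries, against 571, 602, 567 and 624 in WT libraries. The lowest EXT1-/- library lay 2.40-fold above the highest WT library. TEK averaged 1550.2 ± 49.8 in EXT1-/- libraries and 591 ± 27.0 in WT libraries (SD, n = 4 each), 2.62 times the WT mean. Its log2 fold change was 1.39 ± 0.06 (SE), at rank 267 from the most positive, and the low set gave 1.37 and the high set 1.45. The coefficient of variation of TEK was 3.21% in EXT1-/- libraries and 4.57% in WT libraries. That of KDR was 8.55% in EXT1-/- libraries and 3.36% in WT libraries, and that of FLT4 was 13.5% in EXT1-/- libraries and 11.3% in WT libraries.

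**Figure D1:**
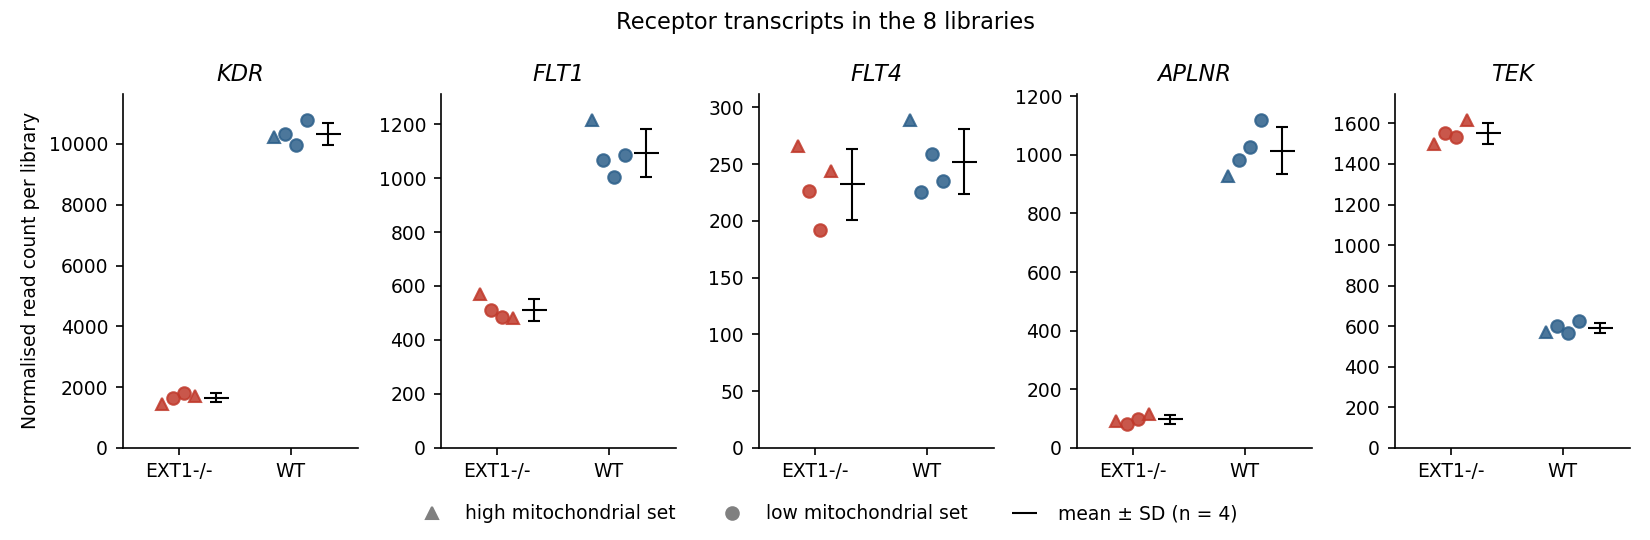
Normalised read counts (linear axis from 0) of the 5 receptor genes in each library, EXT1-/- at the left and WT at the right of each panel. Triangles are libraries of the high mitochondrial set and circles those of the low set, and bars give the mean ± SD of 4 libraries. The groups are apart for KDR, FLT1, APLNR and TEK, and they overlap for FLT4 (192 to 266 in EXT1-/- libraries, 225 to 289 in WT libraries).

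By the limma call used for all genes (adjusted p under 0.05), 3 of the 5 receptors were lower in EXT1-/- cells, against 16.8% of all genes, and 1 was higher, against 15.2%. Over both directions 32% of genes were called. The groups did not overlap for 4 of the 5 receptors, as for 33.5% of all genes. The choice of the receptors used this same contrast, so nothing is read from these counts. In the authors' deposited table the log2 fold changes were -2.65 for KDR, -1.10 for FLT1, -0.12 for FLT4, -3.37 for APLNR and 1.39 for TEK.

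Set against one another, the receptors also stood in a different order in the 2 groups. Levels of different genes are compared per kilobase of merged exon, since a longer transcript yields more reads. In EXT1-/- libraries TEK was the most abundant with 322.6 ± 10.4 normalised counts per kb (SD, n = 4), above KDR with 251 ± 21.5 and FLT1 with 40.7 ± 3.25. FLT4 with 26.2 ± 3.53 and APLNR with 26.2 ± 3.90 came last, and their ranges over libraries overlapped. In WT libraries KDR led with 1574 ± 52.9 normalised counts per kb, above APLNR with 271 ± 21.7, TEK with 123.0 ± 5.62, FLT1 with 87.1 ± 7.05 and FLT4 with 28.5 ± 3.22, and no neighbours in this order overlapped. With the longest protein-coding transcript as the length, FLT1 stood above TEK in WT libraries (154 and 124 normalised counts per kb), and FLT4 lay above APLNR without overlap in EXT1-/- libraries (39.6 and 27.1). The place of KDR and APLNR above TEK in WT libraries, and of TEK above both in EXT1-/- libraries, was the same with either length.

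In normalised counts per kb, KDR exceeded 61.8% of genes in EXT1-/- cells and 94.1% in WT cells. APLNR exceeded 15.6% of genes in EXT1-/- cells and 64.4% in WT cells, and TEK exceeded 68.5% in EXT1-/- cells and 44.6% in WT cells. KDR thus stood nearer the middle of all genes in EXT1-/- cells and near the top in WT cells.

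The 3 VEGF receptors together summed to 318 ± 15.3 normalised counts per kb in EXT1-/- libraries and 1689 ± 53.3 in WT libraries (SD, n = 4 each). KDR made up 78.8 ± 3.05% of this sum in EXT1-/- libraries, against 93.2 ± 0.57% in WT libraries. FLT1 made up 12.9 ± 1.68% in EXT1-/- libraries and 5.15 ± 0.39% in WT libraries, and FLT4 8.29 ± 1.48% in EXT1-/- libraries and 1.69 ± 0.21% in WT libraries. None of these shares overlapped between the groups, and KDR remained the main VEGF receptor transcript in all 8 libraries. The KDR share was lowest in EXT1-/- replicate 1 (74.7%) and ranged up to 81.9% in EXT1-/- replicate 3. With the longest transcript as the length, the KDR share was 70.8% in EXT1-/- libraries and 89.6% in WT libraries, the FLT1 share 18.9% in EXT1-/- libraries and 8.11% in WT libraries, and the FLT4 share 10.4% in EXT1-/- libraries and 2.26% in WT libraries. The shares of the groups did not overlap with that length either. The ratio of KDR to TEK per kb was 0.778 ± 0.06 in EXT1-/- libraries and 12.8 ± 0.24 in WT libraries (SD, n = 4 each). KDR lay below TEK in every EXT1-/- library and above it in every WT library.

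**Figure D2:**
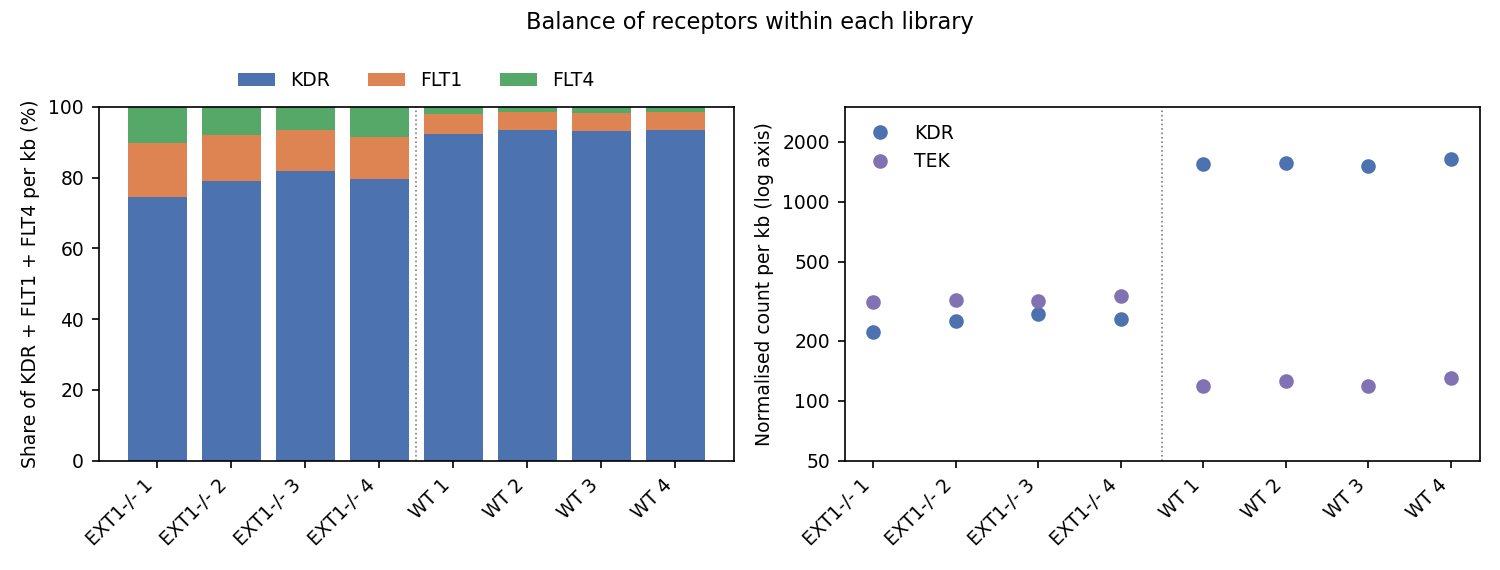
Left, the share of each VEGF receptor in the sum of KDR, FLT1 and FLT4 per kb of merged exon (%), stacked for each library. Right, KDR and TEK in normalised counts per kb on a log axis, where KDR lies below TEK in the 4 EXT1-/- libraries and above it in the 4 WT libraries.

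The ligands and coreceptors were read next, with limma's adjusted p over all genes. Of all genes 15.2% were called higher and 16.8% lower, and the counts of this and the following lists stand beside these shares. Of 7 VEGF ligands and neuropilins, 5 were in the table, 2 of them higher and 1 lower in EXT1-/- cells, with a median log2 fold change of 0.19 (0.06 in the low set alone) against 0.01 over all genes. VEGFA, the ligand of KDR and FLT1, averaged 2284 ± 140 normalised counts in EXT1-/- libraries and 2915 ± 229 in WT libraries (log2 fold change -0.35 ± 0.07 SE, adjusted p = 0.00593). NRP1, a coreceptor that presents VEGFA to KDR, had 277, 253, 313 and 462 in EXT1-/- libraries, against 41, 51, 47 and 56 in WT libraries. Its groups were far apart, with a log2 fold change of 2.69 ± 0.19 (SE, adjusted p = 1.51e-05). NRP2, the coreceptor best known with FLT4, averaged 1047 ± 192 in EXT1-/- libraries and 687 ± 103 in WT libraries (log2 fold change 0.60, adjusted p = 0.0132). VEGFB and PGF, ligands of FLT1, did not pass the test, with log2 fold changes of 0.19 (adjusted p = 0.443) and 0.08 (adjusted p = 0.743). VEGFC and VEGFD were not in the table. The coreceptors NRP1 and NRP2 were thus higher, while KDR and its ligand VEGFA were lower and FLT4 overlapped between the groups.

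Of 6 angiopoietin and TIE genes, 3 were in the table and the ligands ANGPT1, ANGPT2 and ANGPT4 were not. TIE1, the partner of TEK, had 13, 17, 22 and 27 normalised counts in EXT1-/- libraries, against 73, 84, 78 and 81 in WT libraries, so it was low in both groups and lower in EXT1-/- cells (log2 fold change -1.99 ± 0.23 SE, adjusted p = 0.000233). This direction was opposite to that of TEK. TIE1 is in the table only through its WT libraries, so the floor on low values largely fixed its direction. PTPRB, a phosphatase that acts on TEK, had a log2 fold change of -0.49 and did not pass the test (adjusted p = 0.0517). SVEP1, a matrix protein that binds TIE1, averaged 93.2 ± 9.22 in EXT1-/- libraries and 69.5 ± 9.68 in WT libraries (log2 fold change 0.42, adjusted p = 0.0472). The SVEP1 call was lost when any one library was left out.

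Both ligands of APLNR were in the table. Apelin (APLN) had 13, 12, 11 and 11 normalised counts in EXT1-/- libraries, against 47, 50, 54 and 43 in WT libraries (log2 fold change -1.96 ± 0.19 SE, adjusted p = 9.19e-05). APLN is in the table only through its WT libraries, so the floor on low values largely fixed its direction. APELA, the ligand used by embryonic cells, was far more abundant, with 3844, 4735, 4562 and 3312 in EXT1-/- libraries and 3055, 3364, 2948 and 3135 in WT libraries. Its groups overlapped although it passed the test as higher (log2 fold change 0.38 ± 0.11 SE, adjusted p = 0.029). That call was lost without EXT1-/- replicate 2 or 3 or without WT replicate 3 or 4. The more abundant ligand of APLNR was therefore present in both groups.

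Of 17 genes that carry the signal inward from the VEGF receptors, 16 were in the table, with 3 higher, 1 lower and a median log2 fold change of 0.06, against 32% of all genes called in either direction and a median of 0.01. SHB, an adaptor that binds KDR, averaged 273 ± 72.5 in EXT1-/- libraries and 155 ± 24.6 in WT libraries (log2 fold change 0.79, adjusted p = 0.0143). FYN, a kinase of the Src family, averaged 4553 ± 584 in EXT1-/- libraries and 2950 ± 308 in WT libraries (log2 fold change 0.62, adjusted p = 0.00205). PXN, a scaffold of focal adhesions, averaged 1919 ± 211 in EXT1-/- libraries and 2563 ± 247 in WT libraries (log2 fold change -0.42, adjusted p = 0.0105). PTPN1, a phosphatase of receptor kinases, had overlapping groups and a log2 fold change of 0.21 (adjusted p = 0.0413), a call lost when any one library other than WT replicate 1 was left out. PLCG1, GRB2 and PTPN11, common to many receptor kinases, had log2 fold changes between 0.02 and 0.08 and did not pass.

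Transcription factors of blood and endothelium did not share a direction. Of 21 listed, 9 were in the table, with 3 higher and 3 lower, against 15.2% and 16.8% of all genes. Their median log2 fold change was 0.15 (0.09 in the low set alone). ETV2, TAL1, GATA2, FLI1 and ERG were among the listed genes that were not in the table. HHEX, a homeobox factor of early endothelium and endoderm, had 7, 10, 12 and 16 normalised counts in EXT1-/- libraries, against 53, 60, 59 and 62 in WT libraries (log2 fold change -2.33, adjusted p = 0.000191). HHEX is in the table only through its WT libraries, so the floor on low values largely fixed its direction. HEY2, a Notch target, averaged 162 ± 12.2 in EXT1-/- libraries and 454 ± 53.6 in WT libraries (log2 fold change -1.48, adjusted p = 1.31e-05). ETS1, an ETS factor of endothelium, averaged 501 ± 44.7 in EXT1-/- libraries and 779 ± 98.6 in WT libraries (log2 fold change -0.63, adjusted p = 0.00181). ELF1, another ETS factor, was higher, with 1583 ± 197 in EXT1-/- libraries and 669 ± 34.4 in WT libraries (log2 fold change 1.23, adjusted p = 2.18e-05). HEY1, the relative of HEY2, was higher too, with 80.0 ± 7.70 in EXT1-/- libraries and 33 ± 5.94 in WT libraries (log2 fold change 1.26, adjusted p = 0.000564). LMO2, a bridging factor of blood progenitors, averaged 102 ± 17.1 in EXT1-/- libraries and 62.0 ± 15.9 in WT libraries (log2 fold change 0.73, adjusted p = 0.0245). The LMO2 call was lost without EXT1-/- replicate 3 or without WT replicate 2 or 3. HEY1 and HEY2 thus went in opposite directions, and so did ELF1 and ETS1.

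Of the 19 endothelial and blood surface markers, 7 were in the table, with 1 higher and 3 lower, against 15.2% and 16.8% of all genes. Their median log2 fold change was -0.31 (-0.48 in the low set alone). S1PR1, a receptor for sphingosine 1-phosphate in endothelium, had 45, 35, 42 and 62 normalised counts in EXT1-/- libraries, against 611, 516, 545 and 529 in WT libraries. This difference (log2 fold change -3.58 ± 0.16 SE, adjusted p = 1.53e-06) was of the size seen for APLNR. RAMP2, an accessory protein of the adrenomedullin receptor, averaged 103 ± 16.3 in EXT1-/- libraries and 218 ± 36.8 in WT libraries (log2 fold change -1.07, adjusted p = 0.000876). KIT, the stem cell factor receptor, was higher by a log2 fold change of 0.27 (adjusted p = 0.0055). ITGA2B, an integrin of platelets and their precursors, was lower by -0.41 (adjusted p = 0.0389) with overlapping groups, and that call was lost without EXT1-/- replicate 2 or 3 or without WT replicate 1, 2 or 3. ENG, EGFL7 and MCAM did not pass the test.

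**Figure D3:**
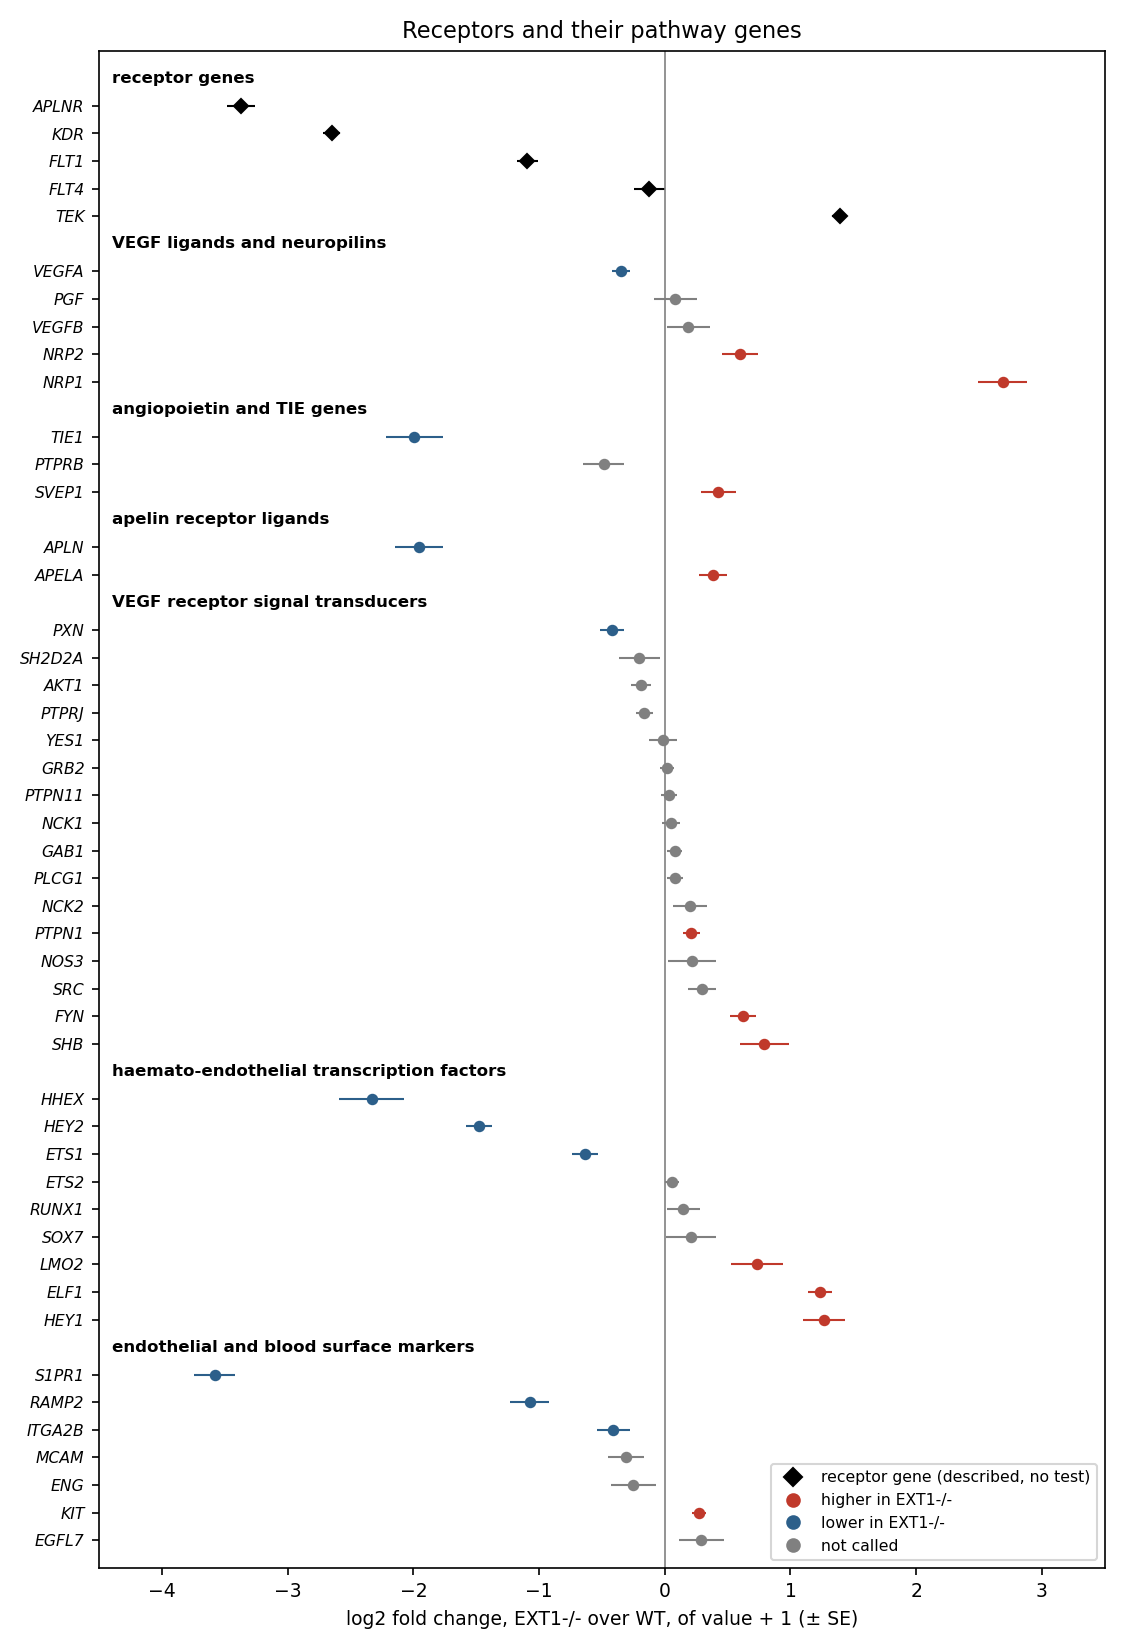
Log2 fold change of value + 1, EXT1-/- over WT, with bars of ± 1 SE, for the receptor genes (black diamonds, no test) and for the genes of 6 lists that were in the table. Red and blue mark genes higher and lower in EXT1-/- cells by limma's adjusted p under 0.05, and grey the others. NRP1 is the farthest to the right (2.69) and S1PR1 the farthest to the left (-3.58).

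Early mesoderm genes, the setting in which KDR and APLNR are first used, were mixed as well. Of 14 listed, 6 were in the table, with 3 higher and 1 lower, against 15.2% and 16.8% of all genes. Their median log2 fold change was 0.92. BMP4, a growth factor that patterns mesoderm, averaged 416 ± 71.5 normalised counts in EXT1-/- libraries and 118 ± 9.91 in WT libraries (log2 fold change 1.80, adjusted p = 1.31e-05). GATA4, a factor of heart mesoderm and endoderm, averaged 856 ± 234 in EXT1-/- libraries and 232 ± 21.4 in WT libraries (log2 fold change 1.84, adjusted p = 5.71e-05). HAND1, a factor of lateral and extraembryonic mesoderm, had 63, 42, 40 and 104 in EXT1-/- libraries, against 0, 0, 1 and 1 in WT libraries, and passed the test as higher. HAND1 is in the table only through its EXT1-/- libraries. PDGFRB, a receptor of mesenchyme, averaged 215 ± 20.7 in EXT1-/- libraries and 322 ± 43.0 in WT libraries (log2 fold change -0.57, adjusted p = 0.00511). PDGFRA and TBX6 did not pass. Lower KDR and APLNR therefore stood beside higher BMP4 and GATA4 and lower PDGFRB in the same libraries.

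Markers of other cell states moved with the receptors, and their part in the receptor differences was not tested. Over all genes 15.2% were higher and 16.8% lower. Among 5 mesendoderm markers in the table, 4 were lower (TBXT, MIXL1, EOMES and NODAL) and 0 higher, while GSC did not pass. The summed level of the 5 was 11256 to 17417 normalised counts in EXT1-/- libraries and 31086 to 35294 in WT libraries. MIXL1 averaged 5161 ± 1212 in EXT1-/- libraries and 14762 ± 1102 in WT libraries (log2 fold change -1.54, adjusted p = 7.43e-05), and TBXT 3584 ± 910 in EXT1-/- libraries and 6558 ± 510 in WT libraries (log2 fold change -0.90, adjusted p = 0.00205). The 3 neuroectoderm markers in the table (ZIC1, POU3F2 and OTX1) were higher, with a summed level of 2816 to 5000 in EXT1-/- libraries and 142 to 184 in WT libraries, while PAX6, SOX1 and LHX2 were not in the table. POU3F2 and OTX1 are in the table only through EXT1-/- libraries, so the floor on low values largely fixed their direction. Of 7 pluripotency markers 2 were higher (SOX2 and PODXL) and 4 lower (POU5F1, NANOG, DPPA4 and TDGF1), with summed levels of 160551 to 180486 in EXT1-/- libraries and 188332 to 207311 in WT libraries. Among 4 endoderm markers in the table, 2 were higher (CXCR4 and GATA4) and 1 lower (FOXA2), while CER1 did not pass. GATA4 was also counted with the early mesoderm genes. The summed levels were 1281 to 1886 in EXT1-/- libraries and 477 to 527 in WT libraries. CXCR4 and GATA4 made the sum higher, while FOXA2 averaged 34.5 in EXT1-/- libraries and 105.5 in WT libraries.

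The chromosomal neighbours of the receptors were read next. Of 42 genes in the table within 500 kb of a receptor gene, 5 were higher and 7 lower in EXT1-/- cells, a share near that of all genes (15.2% higher and 16.8% lower), and their log2 fold changes ran from -1.45 to 1.22. Near KDR, KIT was higher as given above, SRD5A3, the nearest gene on the other side at 220514 bases, was lower (log2 fold change -0.62, adjusted p = 3.07e-05), and NMU was lower (-1.45, adjusted p = 0.000293). SRD5A3 encodes an enzyme of dolichol synthesis and NMU a neuropeptide. PAN3, which ends 5009 bases from FLT1, had a log2 fold change of 0.05 and did not pass, and neither did POMP on the other side (-0.26). Farther from FLT1, the receptor kinase FLT3 (log2 fold change 0.85, adjusted p = 0.00147) and MTUS2 (1.22, adjusted p = 0.000371) were higher, and the pseudogene CYP51A1P2 was lower (-0.82, adjusted p = 0.0293), a call lost when any library other than WT replicate 1 was left out. As CYP51A1P2 is a processed copy, reads of its parent gene may be counted there.

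Beside APLNR, LRRC55, which encodes a subunit of potassium channels and lies 41860 bases away, was lower, with 187 ± 34.2 normalised counts in EXT1-/- libraries and 472 ± 21.5 in WT libraries (log2 fold change -1.35, adjusted p = 7.07e-05). TNKS1BP1, the nearest gene on the other side, did not pass (0.10), and of the 16 genes near APLNR the amino acid transporter gene SLC43A1 (-0.88, adjusted p = 2.71e-05) and AP000662.2 (-1.08, adjusted p = 0.00174) were the other 2 that were lower, with 0 higher. Near TEK, IFT74 did not pass (0.09), and MOB3B on the other side, at 95034 bases, was lower (-0.59, adjusted p = 0.000106), opposite in direction to TEK. Near FLT4, CNOT6, the nearest gene, did not pass, while GFPT2 (0.30, adjusted p = 0.0278) and MGAT1 (0.30, adjusted p = 0.0246) were higher. The GFPT2 call was lost without EXT1-/- replicate 1 or 2 or WT replicate 2, 3 or 4, and the MGAT1 call without EXT1-/- replicate 1 or WT replicate 2 or 4.

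**Figure D4:**
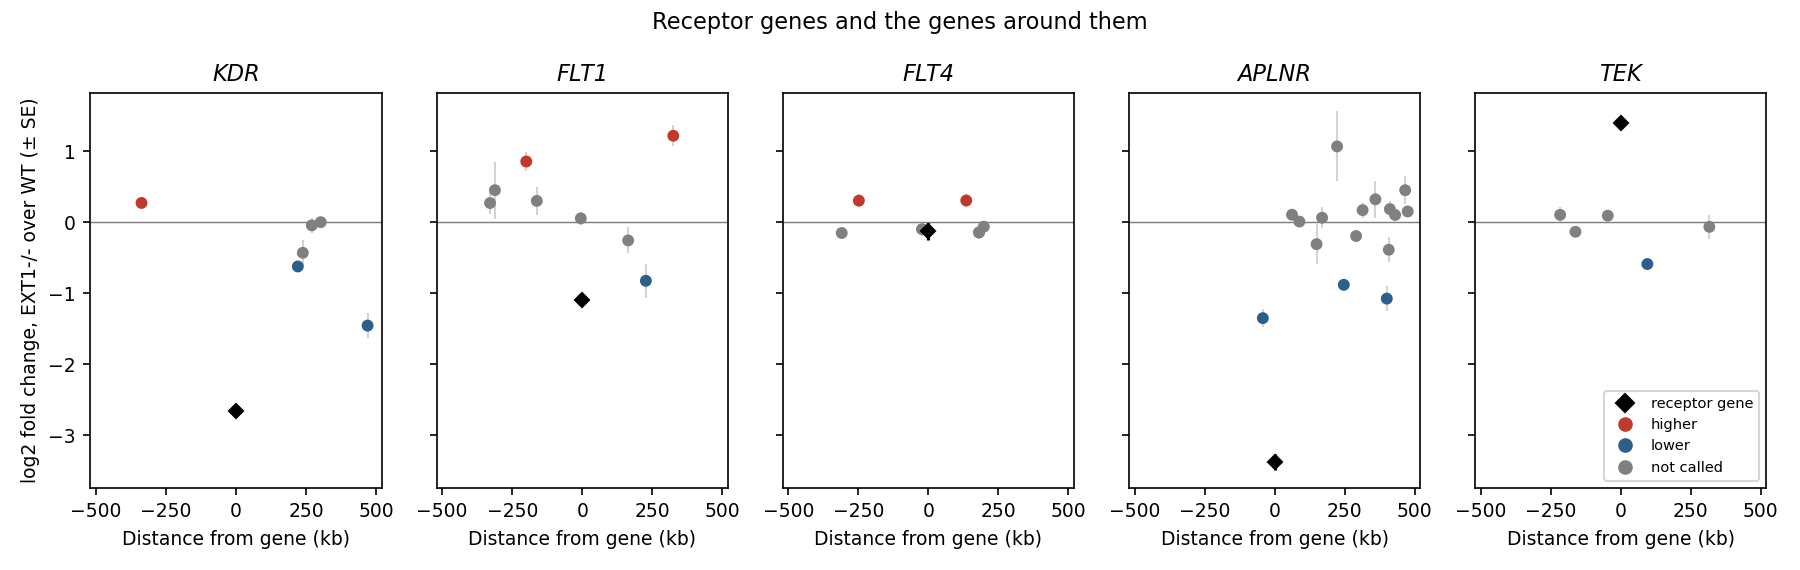
Log2 fold change, EXT1-/- over WT, with bars of ± 1 SE, of the genes within 500 kb of each receptor gene, against the distance from that gene in kb (negative towards lower coordinates). The black diamond at 0 is the receptor gene, and red, blue and grey are genes higher, lower and not called by limma. KDR (-2.65) and APLNR (-3.37) lie below all their neighbours and TEK (1.39) above all of its own.

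The genes with profiles most like each receptor over the 8 libraries were ranked by the distance between log2 profiles, each centred on its own mean, among 13027 protein-coding genes. For KDR these were FAT3 (distance 0.35), DAB1 (0.37) and GRIA3 (0.39), an atypical cadherin, an adaptor of reelin signalling and a glutamate receptor subunit. FAT3 averaged 428 ± 8.54 normalised counts in EXT1-/- libraries and 3037 ± 135 in WT libraries. For APLNR they were PCDH10 (0.32), ETV5 (0.42) and ADCY2 (0.46), a protocadherin, an ETS factor used as a readout of FGF signalling and an adenylyl cyclase. ETV5 averaged 125 ± 27.1 in EXT1-/- libraries and 1457 ± 126 in WT libraries.

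For TEK they included CDC42EP4 (0.16) and EML1 (0.20), and CDC42EP4 averaged 1398 ± 49.0 in EXT1-/- libraries and 544 ± 21.6 in WT libraries. CDC42EP4 binds the GTPase CDC42, and EML1 binds microtubules. For FLT1 they were OLFML3, MEIOC and COL11A1, at distances of 0.19 each, and for FLT4 NMRAL1, TIGD6 and NDUFV3, at 0.17 to 0.18. The distance is a description over 8 libraries and says nothing of shared function.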

How the data were processed

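Total RNA of 4 EXT1-/- and 4 WT libraries of H9 cells was sequenced after a stranded library kit, per the labels' protocols, and the sample titles gave group and replicate. STAR, RSEM and edgeR and the build GRCh38.p10 are named, without versions, per the submitters' processing notes. The values per library are a normalised signal that the authors deposited as whole numbers; their effective sizes were 38890445 to 38899212 in all 8 libraries, so they are not raw counts and no count test was run. For each gene the authors also deposited a p-value, an FDR, a likelihood ratio score and log2 values (fold change and CPM); of these, the log2 fold changes of the 5 receptors are quoted.

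The 5 receptors and all gene lists were chosen with earlier results of these data known. The test was limma 3.58.1 (R 4.3.3) with an intensity trend on log2(value + 1), with genotype alone in the model, in place of a test on counts. P-values were adjusted by Benjamini-Hochberg across the 15811 genes, and 0.05 was the threshold. The fit was tested on simulated data that held no library sets, so its behaviour with the sets seen here was not tested. Fold changes are on that scale, which understates those of low genes. Levels per kb use merged exons of GENCODE 29, to which 15777 genes (99.8%) were matched by Ensembl identifier. Genes were named by rule: the receptors, any list gene, with values for the ligands and coreceptors and for genes past the threshold except some markers of other cell states that are only counted, the nearest neighbours and those past the threshold within 500 kb, and 3 genes per receptor by profile distance, of which 1 is not reported here. Library sets were split at the widest gap in mitochondrial share. Pairs of libraries of 1 group were compared by a chi-square per degree of freedom, with the values taken as counts. It was 4.42 to 10.8 for pairs within a mitochondrial set and 72.4 to 119 for pairs from different sets. As the values are normalised, neither range can be set against sampling noise. Alternatives were other scalings, another pseudocount, a filter on low values, limma without a trend, a replicate block, the library set as a term, the low set alone and each library left out. The share of the VEGF receptors by longest transcript was added after seeing the data. Python 3.11.15, numpy 2.4.6, pandas 2.3.3 and matplotlib 3.10.9 were used.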

Additional observations from a re-analysis of the deposited data

Results flagged for a closer look

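No library stood apart from the other 3 of its group for any of the 5 receptors. Among 158 groups of 4 libraries (79 genes), 21 had a highest or lowest library set apart from the rest by Dixon's test at its 95% level, which is 13.3%, where chance gives about 1 in 20, and 16 of the 21 were libraries of the high mitochondrial set.

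In EXT1-/- replicate 4 the values set apart were 4932 normalised counts for TBXT (3002 to 3328 in the other EXT1-/- libraries), 4431 for ZIC1 (2501 to 2733), 1203 for GATA4 (693 to 764), 523 for BMP4 (372 to 389), 405 for PCDH10 (261 to 272), 110 for POU3F2 (85 to 89) and 53 for FOXA2 (27 to 31). All 7 were the highest of the group. In WT replicate 1 they were 8575 for OLFML3 (6958 to 7177 in the other WT libraries), 4018 for NANOG (3501 to 3551), 3410 for FYN (2762 to 2815), 1971 for PTPN1 (1668 to 1684), 1386 for DAB1 (1277 to 1283), 841 for NRP2 (629 to 643) and 504 for LRRC55 (458 to 465), all high, and 2285 for SRD5A3 (2378 to 2396) and 329 for NMU (504 to 523), both low.

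In the low mitochondrial set, FLT3 had 124 in EXT1-/- replicate 3 (112 to 114 in the others) and 50 in WT replicate 2 (67 to 70). WT replicate 3 had 7319 for TBXT (6244 to 6378) and 54 for MTUS2 (40 to 41), and WT replicate 4 had 152 for GRIA3 (170 to 172).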

How the results depend on the processing

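All 85 values of the 5 receptors under the alternatives stayed within 1 SD of the spread between replicates, with no change of direction. With each library left out, the log2 fold change ran from -2.69 to -2.59 for KDR, -1.15 to -1.04 for FLT1, -0.19 to -0.03 for FLT4, -3.46 to -3.30 for APLNR and 1.37 to 1.42 for TEK. Of the values of other genes under the alternatives, 1947 kept their side of the threshold, 48 lost it and 47 gained it. Among the 1947, 45 values of genes not called under either setting changed sign, and 0 called genes did. With the library set as a term, 9 genes near the receptors were higher and 12 lower, against 5 and 7 without it, and over all genes 4142 were higher and 4053 lower, against 2405 and 2658; the cause was not tested. In the low set alone, 8 near genes were higher, and all 40 calls on list genes were kept, as they were with the set term. With the set term 7 further list genes were called (PTPRB, SRC, PTPN11, PTPRJ, AKT1, MCAM and TBX6). In the low set alone 5 were added (SRC, AKT1, MCAM, TBX6 and GSC). With each library left out, 3 to 6 near genes were higher and 6 to 9 lower, with 3 higher without EXT1-/- replicate 1, WT replicate 2 or WT replicate 4.

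The deviations of same-numbered libraries correlated at 0.78, 0.44, 0.26 and -0.65. Over all pairs the correlations were positive within a mitochondrial set and negative between the sets. The check therefore follows the library sets and cannot tell whether replicate numbers pair the libraries. With a replicate block 39 of 40 calls on list genes were kept (all but ITGA2B), and over all genes 2276 were higher and 2658 lower. A filter of 5 CPM in 4 libraries left 11 called list genes untested, TIE1, APLN and HHEX included, whose low values limit the precision of their ratios.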

Other observations

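Ratios between a receptor and its partner are given per kb of merged exon. NRP1 over KDR was 0.113 ± 0.03 in EXT1-/- libraries and 0.00268 ± 0.000287 in WT libraries (SD, n = 4 each). TEK over TIE1 was 117 ± 34.3 in EXT1-/- libraries and 10.4 ± 0.45 in WT libraries, and the spread in EXT1-/- libraries comes with TIE1 values of only 13 to 27 normalised counts. TIE1 is in the table only through its WT libraries, so the floor on low values also bears on this ratio.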
